A study of Mus musculus with 18 samples.

Results

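The genes described here are the guidance families of ephrins, semaphorins, slits and netrins with their receptors. Members were taken by gene symbol: the Eph receptors (Epha and Ephb), the ephrins (Efna and Efnb), the semaphorins Sema3 to Sema7, the plexins (Plxn), both neuropilins (Nrp), the Slit and Robo genes, the netrins (Ntn), the Unc5 receptors and Dcc. The rule matched 69 of 26157 symbols in the count table of day 2 and 69 of 54114 symbols in the count table of the later days. They are 14 Eph receptors, 8 ephrins, 20 semaphorins, 11 plexins and neuropilins, and 16 genes of the Slit, Robo and netrin systems. No measured value enters the rule.

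RNA sequencing was done on mouse embryonic stem (ES) cells that carry a tdTomato reporter for Msx1, a homeobox gene of facial and dental mesenchyme, and on embryoid bodies grown from them as hanging drops. The day-2 groups were embryoid bodies with inducible Dlx2, a homeobox gene of the pharyngeal arches, and embryoid bodies with inducible GFP, both treated with 1 µg/ml doxycycline. The later groups were Msx1-positive and Msx1-negative cells sorted by flow cytometry at day 8 and at day 16 from doxycycline-treated embryoid bodies with inducible Dlx2, and the last group was labelled as wild-type, untreated ES cells. Each of these 7 groups had 2 libraries, 14 in all.

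All sorted cells carried the Dlx2 transgene and received doxycycline, and the files hold neither a GFP nor an uninduced counterpart for them. The day-2 groups differ in the line as well as in the transgene, and the labels give neither the number of clones behind a line nor the origin of the 2 libraries of a group. The p-values therefore measure the spread between these libraries, which may be technical. The 4 uninduced day-2 samples were not analysed here.

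Guidance ligands and receptors steer moving cells and growing axons by contact or by secreted cues. Ephrins sit on the cell surface and activate Eph receptor tyrosine kinases on neighbouring cells, semaphorins act on plexins, with neuropilins as partners for the secreted Sema3 proteins, Slits act on Robo receptors, and netrins act on Dcc and Unc5 receptors. In the embryonic head the same systems keep streams of cranial neural crest apart, and loss of ephrin-B1 (Efnb1) disturbs the skull and face.

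Promoter sequences are shown for 3 genes because each had the largest rise at day 2 in its class among members with an exon-free window. They are Sema6d (a membrane semaphorin), Nrp1 (neuropilin-1, a co-receptor) and Ntn4 (netrin-4, a secreted ligand). Epha5, an ephrin-A receptor, is shown because its window was the exon-free one that holds TAATTA, a core of homeodomain binding motifs and its own reverse complement, so that 1 search reads both strands. Each window is the 250 bases before a start site, taken from RefSeq's promoter table (GRCm38.p6), written 5′ to 3′ on the gene's strand in lower case with TAATTA in capitals. The windows are chr2:124089719-124089968 on the plus strand for Sema6d, chr8:128358823-128359072 on the plus strand for Nrp1, chr10:93640799-93641048 on the plus strand for Ntn4 and chr5:84417383-84417632 on the minus strand for Epha5. In GENCODE vM21 Nrp1 begins at 128358604 and Ntn4 at 93640681, so these windows lie inside the annotated genes. Sema6d has another exon-free window, at chr2:124653331-124653580, and the more upstream one is shown.
Sema6d: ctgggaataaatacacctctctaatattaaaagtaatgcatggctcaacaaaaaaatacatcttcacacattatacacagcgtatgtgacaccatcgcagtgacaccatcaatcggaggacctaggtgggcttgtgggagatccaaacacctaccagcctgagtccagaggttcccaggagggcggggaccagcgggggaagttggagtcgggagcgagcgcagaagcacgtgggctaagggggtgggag
Nrp1: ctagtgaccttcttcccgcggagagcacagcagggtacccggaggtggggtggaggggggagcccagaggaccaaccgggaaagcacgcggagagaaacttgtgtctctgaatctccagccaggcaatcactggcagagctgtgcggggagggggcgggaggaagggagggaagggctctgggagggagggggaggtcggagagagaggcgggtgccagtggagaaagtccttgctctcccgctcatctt
Ntn4: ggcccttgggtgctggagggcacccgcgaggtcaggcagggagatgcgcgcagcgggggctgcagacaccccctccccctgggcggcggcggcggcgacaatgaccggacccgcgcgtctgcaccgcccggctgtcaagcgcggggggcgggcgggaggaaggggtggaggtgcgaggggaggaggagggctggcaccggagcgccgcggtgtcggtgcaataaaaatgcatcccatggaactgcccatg
Epha5: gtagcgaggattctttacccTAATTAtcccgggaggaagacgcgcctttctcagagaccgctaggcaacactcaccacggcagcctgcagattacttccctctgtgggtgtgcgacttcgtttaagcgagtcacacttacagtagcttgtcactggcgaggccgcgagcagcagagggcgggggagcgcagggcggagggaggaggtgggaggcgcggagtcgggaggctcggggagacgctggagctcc
In the Epha5 window TAATTA begins at position -230 from the start site, and the Sema6d, Nrp1 and Ntn4 windows do not hold these letters. The promoter table matched 59 of the 69 members with 75 windows. TAATTA stood in 3 of these windows (4.0%), those of Efna1, Epha5 and Robo3, against 1590 of 32851 windows of all genes (4.84%). Members that were higher at day 2 held it in 2 of 40 windows (5.0%), and members that were lower in 1 of 19 (5.26%). GC content was higher in member windows, with a median of 64.4% against 52.4% over all windows, and the median number of CpG pairs was 15 against 6. A match describes letters, not a bound site, and no match says only that these letters are not in the window.

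Library totals were 26211608 to 41552818 counts at day 2 and 53797597 to 107770730 counts in the later table, and mitochondrial genes took 1.6% to 3.32% of the counts. Levels are given as CPM, counts relative to library size with trimmed-mean scaling, set within each table, so levels of the day-2 groups and of the other groups were normalised separately. Dlx2 itself was at 4340 and 4720 CPM in the Dlx2 embryoid bodies and at 0.0811 and 0.0807 CPM in the GFP embryoid bodies. The libraries labelled untreated wild-type ES cells held Dlx2 at 219 and 222 CPM, which goes against that label, and they are called the libraries labelled ES cells throughout. Msx1 was at 40.9 and 46.8 CPM in the Msx1-positive cells of day 8 against 1.9 and 1.02 CPM in the Msx1-negative cells, and at 73.7 and 81.6 CPM against 0.818 and 0.752 CPM at day 16.

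Markers of other cell types moved with these groups. The summed level of 8 mesenchyme markers was 55 to 56.8 CPM in Msx1-negative and 1830 to 1970 CPM in Msx1-positive cells at day 8, and 429 to 462 against 9770 to 10300 CPM at day 16. At day 2 the 7 of these markers in the table summed to 8.31 to 9.36 CPM with GFP and 1500 to 1520 CPM with Dlx2. Most of the sum with Dlx2 was Col1a2, at 1240 and 1270 CPM, and Pdgfra, at 241 and 227 CPM. Col3a1 was at 0.816 and 1.16 CPM and Postn at 0.227 and 0.289 CPM with Dlx2, though each of the 7 markers was higher than with GFP. The 8 pluripotency markers went the other way, with 3110 to 3160 CPM with GFP, 831 to 846 CPM with Dlx2, 3510 to 3540 CPM and 1000 CPM in the day-8 Msx1-negative and Msx1-positive cells, and 2540 CPM and 186 to 197 CPM at day 16. The 5 neural progenitor markers summed to 77.7 to 79.9 CPM with Dlx2 against 40.3 to 45.4 CPM with GFP. In Msx1-positive against Msx1-negative cells they summed to 72.3 to 78.7 against 41.4 to 42.5 CPM at day 8. At day 16 they summed to 166 to 189 against 50.1 to 53.4 CPM, most of it Nes at 177 and 156 against 32.4 and 34.6 CPM. Pax6 and Fabp7 were also higher at both days. Sox1 was lower, at 19.8 and 21.9 against 28.7 and 32 CPM at day 8 and 4.1 and 3.6 against 14.5 and 15.9 CPM at day 16. The sum of the 10 neuron markers was lower, with 167 to 169 against 284 to 292 CPM at day 2. It was 181 to 187 against 304 to 308 CPM at day 8 and 108 to 117 against 215 CPM at day 16. Single neuron markers went both ways, with Stmn2 and Elavl3 lower and Dcx and Map2 higher in each comparison. At day 2 Stmn2 was at 58.4 and 64 CPM with Dlx2 against 193 and 189 CPM with GFP. Dcx was at 11.7 and 8.44 CPM against 0.0406 and 0 CPM. The sum of the blood markers was higher in Msx1-positive cells, at 47.2 to 54.7 CPM against 6.28 to 7.94 CPM at day 8. At day 16 it was 92.4 to 96.3 CPM against 15.4 to 15.5 CPM. Most of this was Runx1, at 41.8 and 48.9 CPM against 4.29 and 5.23 CPM at day 8. Runx1 was at 85.3 and 89.9 CPM against 11.6 and 11.3 CPM at day 16. Tal1 and Hba-a1 were also higher at both days, at low levels. Gata1 was lower at day 16, at 0.842 and 0.888 CPM against 1.82 and 1.1 CPM. The part of the cell mixture in the results below was not tested, and in bulk samples fewer cells of a type and less RNA per cell cannot be told apart.

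Across the 5 groups of the later table most members were highest in the Msx1-positive cells of day 16. This held for 38 of 69 members by group mean, while 11 were highest in Msx1-positive cells of day 8, 6 in Msx1-negative cells of day 8, 5 in Msx1-negative cells of day 16 and 9 in the libraries labelled ES cells. The same ranking was not made over all genes, so these counts have no background to be read against. Per kilobase of exon, the 8 ephrins summed to 17.1 ± 0.49 CPM (SD, n = 2) in the libraries labelled ES cells and 127 ± 2.6 in the Msx1-positive cells of day 16. The 14 Eph receptors did not follow them, with 173 ± 5.7 in the libraries labelled ES cells and 116 ± 4.6 in the Msx1-positive cells of day 16. Plexins and neuropilins summed to 67.3 ± 3.2 and 201 ± 14, semaphorins to 55.7 ± 1.2 and 110 ± 3.6, and the Slit, Robo and netrin genes to 30.4 ± 1.1 and 150 ± 8.4 in the same groups.

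**Figure D1:**
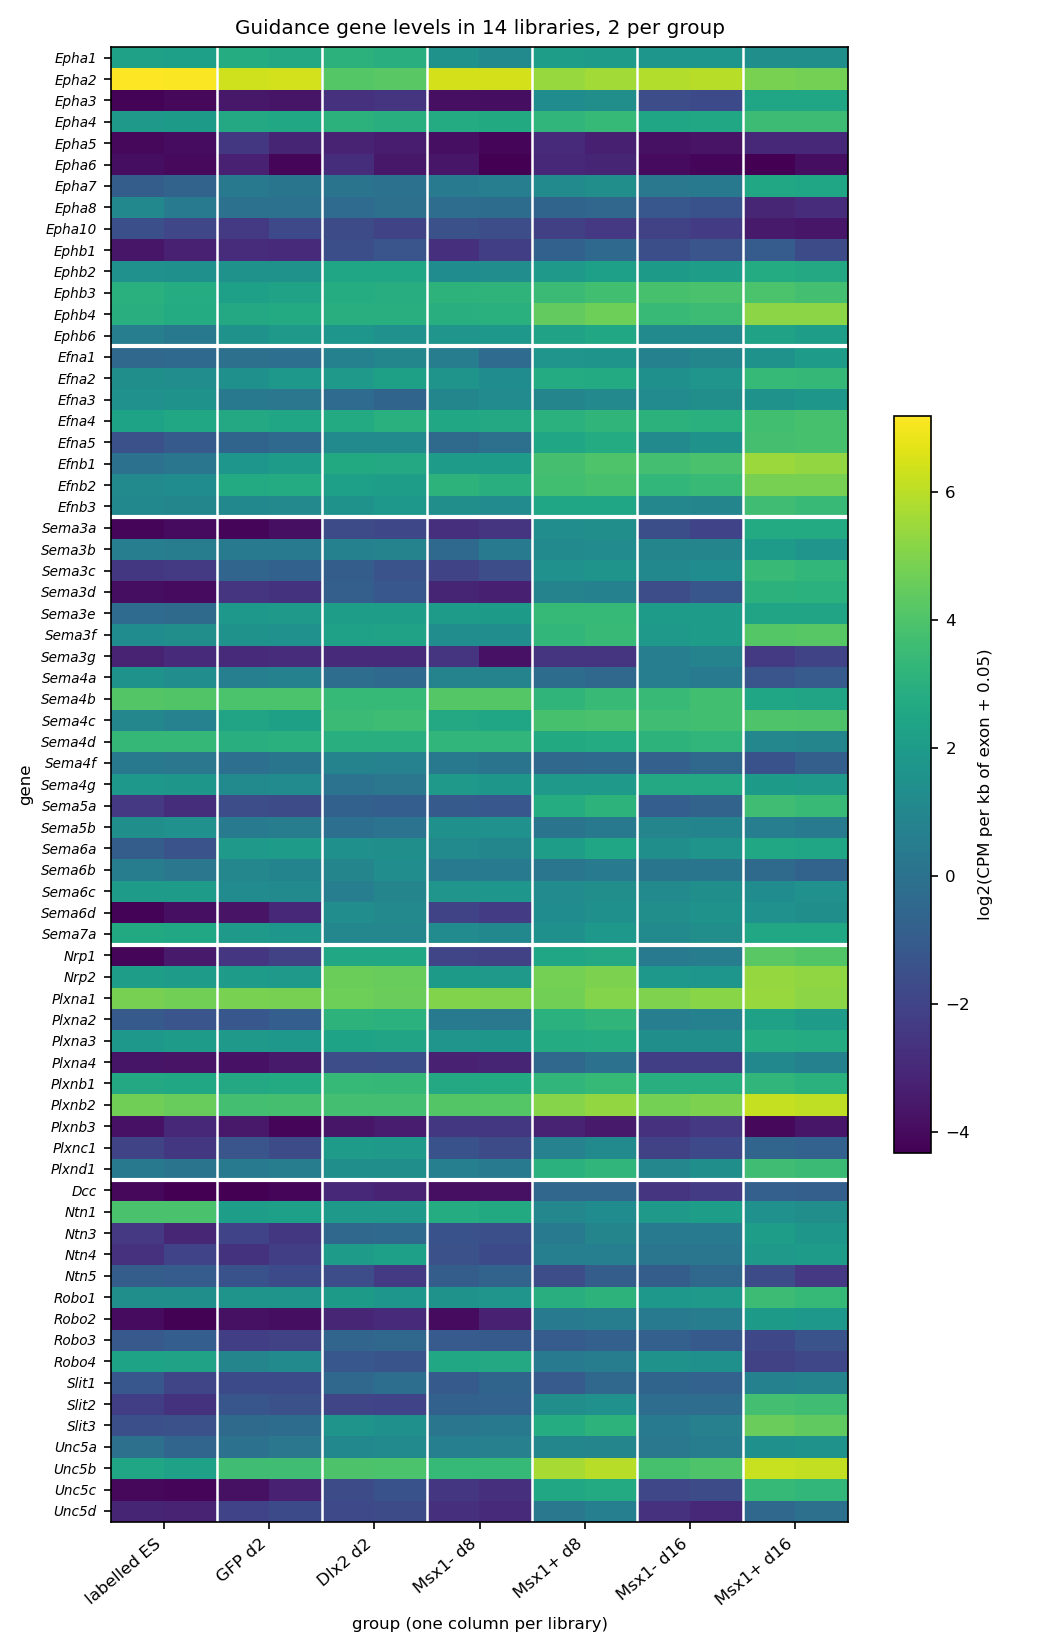
Each row is 1 of the 69 guidance genes, grouped by class with white lines, and each column is 1 library; colour gives log2(CPM per kb of exon + 0.05). Rows such as Epha2 are brightest in the libraries labelled ES cells, and rows such as Nrp2, Plxnb2, Efnb1 and Unc5b are brightest in the Msx1-positive cells of day 16.

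The main member of a class changed with the group. Epha2, an ephrin-A receptor of early embryonic cells, made up 82.9% ± 0.64 (SD, n = 2) of the summed Eph receptor level per kilobase in the libraries labelled ES cells and 72.3% ± 0.17 in the GFP embryoid bodies. Its share was 30.4% ± 1.4 in the Dlx2 embryoid bodies. In sorted cells the share was 72.2% ± 0.097 in Msx1-negative and 41.4% ± 0.22 in Msx1-positive cells at day 8, and 58% ± 0.11 against 24.6% ± 0.36 at day 16. In the Msx1-positive cells of day 16 Ephb4, the receptor for ephrin-B2, came first among Eph receptors with 31.4% ± 0.64.

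Among semaphorins the first place passed from Sema4b, a membrane semaphorin, with 30.7% ± 0.12 in the libraries labelled ES cells, to Sema3f, a secreted neuropilin-2 ligand, with 16.4% ± 0.6 in the Msx1-positive cells of day 16. Ephrins were led by Efna4 in the libraries labelled ES cells (31.7% ± 1.4) and by Efnb1 in the Msx1-positive cells of day 16 (33.1% ± 1.7). Netrin-1 (Ntn1) led the Slit, Robo and netrin genes in the libraries labelled ES cells with 48.6% ± 1.4. The netrin receptor Unc5b led them in every other group, with shares from 33.4% ± 0.23 in Msx1-negative cells of day 8 to 60% ± 0.8 in Msx1-positive cells of day 8. Plxna1 and Plxnb2, receptors for Sema3 and Sema4 proteins, held the first place among plexins and neuropilins in every group, and in the Dlx2 embryoid bodies Nrp2 (24.1% ± 0.28) came close to Plxna1 (24.9% ± 0.27).

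**Figure D2:**
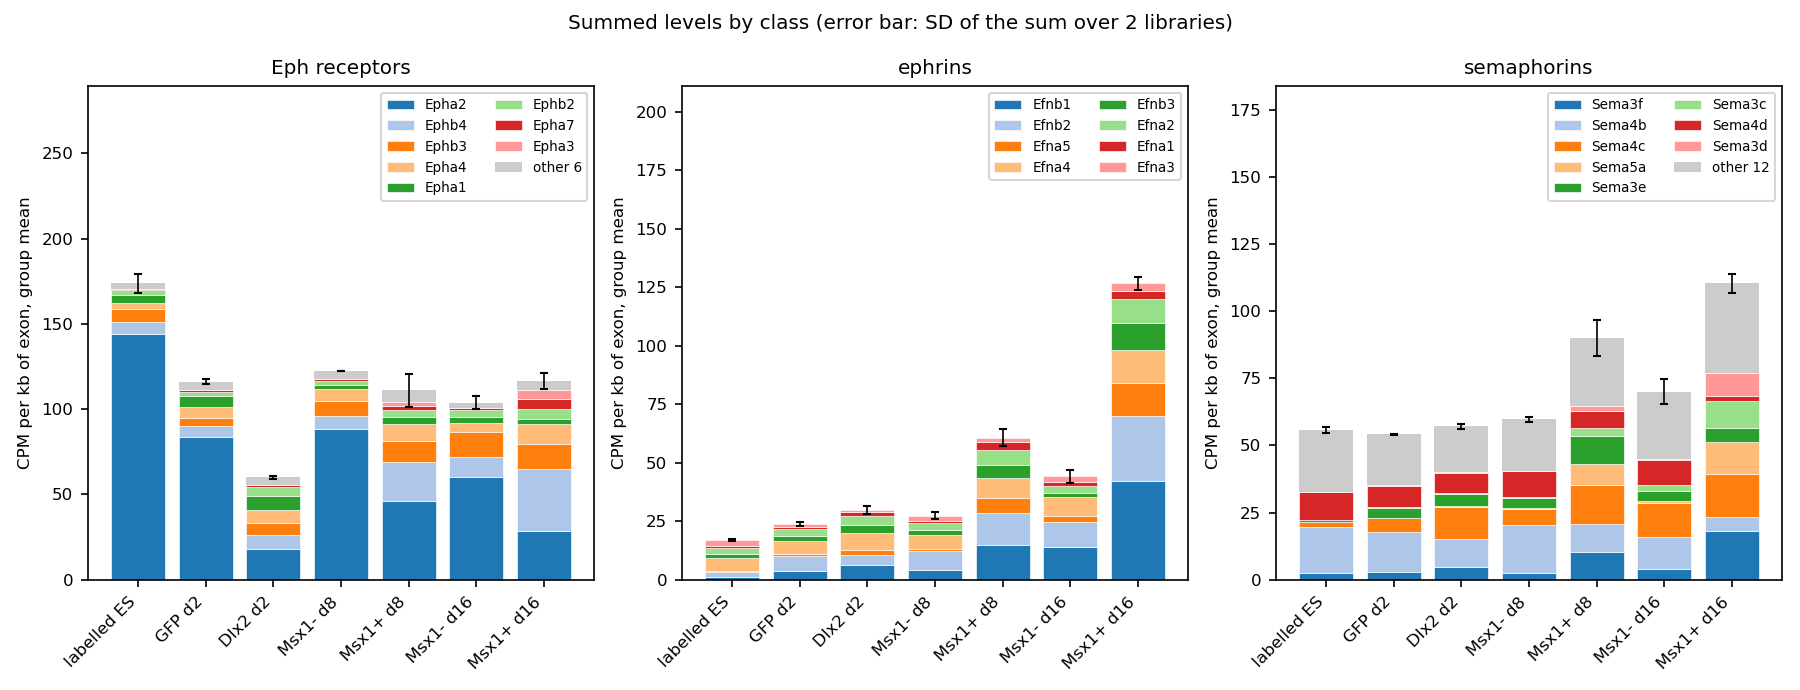
Stacked bars give the mean level per kilobase of exon of each member (CPM per kb, y axis) in the 7 groups for Eph receptors, ephrins and semaphorins, with the SD of the summed level over 2 libraries as the error bar. Epha2 is the largest block of the Eph receptor bars except in the Msx1-positive cells of day 16, and the ephrin bar is tallest there at 127 CPM per kb.

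The day-2 comparison addresses what forced Dlx2 does early, before sorting. Of the 67 members that passed the low-count filter, 40 were higher and 16 lower in Dlx2 than in GFP embryoid bodies at an adjusted p below 0.05 in edgeR's quasi-likelihood test. Of all 18650 genes tested, 34.1% were higher and 33% lower (67.2% in either direction). The median log2 change was 0.39 over members and 0.02 over all genes. Receptors rose more often than ligands, 22 of 32 tested against 18 of 35, but this difference was not tested. Epha6 and Plxnb3 were not tested for low counts.

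Ephrins and Eph receptors moved in both directions at day 2. Of 8 ephrins 6 rose and 2 fell, and of 13 Eph receptors 7 rose and 2 fell. Efna5, a lipid-anchored ephrin, was at 2.47 and 2.87 CPM with GFP and 8.97 and 8.99 CPM with Dlx2. Both Dlx2 libraries stood above both GFP libraries, a log2 change of 1.75 ± 0.17 (SE; adjusted p = 3.79e-09). Efna1 (0.95 ± 0.24, adjusted p = 0.00127) and Efnb1 (0.80 ± 0.1, adjusted p = 5.04e-07) also rose. Efnb2, the transmembrane ephrin of arteries, fell from 44.1 and 46 CPM to 30.9 and 29.8 CPM (-0.57 ± 0.075, adjusted p = 6.36e-07). Efna3 was at 2.92 and 2.79 CPM against 1.86 and 1.45 CPM (-0.78 ± 0.25, adjusted p = 0.00866), a call lost without Dlx2 library 2 (adjusted p = 0.121).

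Epha2 had the largest fall of any receptor kinase in the list. It was at 390 and 395 CPM with GFP and 83.4 and 87.4 CPM with Dlx2, groups that lie far apart (-2.20 ± 0.05, adjusted p = 4.08e-20). Ephb1, Epha3 and Ephb2, receptors of neural and mesenchymal cells, rose. Ephb2 was the most abundant of them, with 35.9 and 35.7 CPM against 71.4 and 67.5 CPM (0.96 ± 0.068, adjusted p = 2.73e-11). Ephb1 was at 0.608 and 0.565 CPM against 2.06 and 2.49 CPM (1.94 ± 0.33, adjusted p = 2.24e-05). Epha3 was at 0.284 and 0.242 CPM against 0.906 and 1.07 CPM (1.89 ± 0.49, adjusted p = 0.00181). Epha5 differed between the 2 GFP libraries (2.19 and 1.09 CPM) and was at 1.04 and 0.694 CPM with Dlx2. Its fall of -0.90 ± 0.37 (adjusted p = 0.0359) became -0.32 (adjusted p = 0.551) without GFP library 1.

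Semaphorins split evenly at day 2, with 8 higher and 8 lower of 20, beside 34.1% higher and 33% lower of all genes tested. Of the 10 plexins and neuropilins tested 8 rose, and Plxna1 fell. Sema6d, a membrane semaphorin that binds plexin-A1, was nearly silent with GFP at 0.284 and 0.767 CPM and stood at 25.8 and 21.9 CPM with Dlx2. The change of 5.50 ± 0.21 (adjusted p = 4.38e-16) was the largest of any member at day 2. Sema3a, the secreted repellent of neuropilin-1, went from 0.0811 and 0.283 CPM to 3.76 and 3.27 CPM (4.25 ± 0.39, adjusted p = 2.43e-09). Sema3d rose by 1.95 ± 0.26 (adjusted p = 7.37e-07). Of the 8 semaphorins that fell Sema3c is secreted and the others are membrane-bound, and Sema4g had the largest fall, from 18.7 and 20 CPM to 8.72 and 9.74 CPM (-1.07 ± 0.11, adjusted p = 1.08e-08). Sema4a fell by 1.01 and Sema7a, a lipid-anchored semaphorin, fell by 0.84 on the log2 scale (adjusted p = 5.49e-06 for each).

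Both neuropilins and 6 of 8 tested plexins rose at day 2. Nrp1 was at 1.22 and 1.9 CPM with GFP and 55.7 and 55.9 CPM with Dlx2, so the Dlx2 libraries lay close together and the groups did not overlap (5.16 ± 0.13, adjusted p = 1.95e-19). Nrp2, the receptor for Sema3f, was at 46 and 43.3 CPM against 287 and 270 CPM (2.64 ± 0.056, adjusted p = 1.22e-20). Plxna2, a signalling partner of neuropilins, was at 6.57 and 8.44 CPM against 147 and 140 CPM (4.26 ± 0.085, adjusted p = 3.6e-21). Plxnc1, the receptor for Sema7a, rose by 3.62 ± 0.13 (adjusted p = 2.03e-16), whereas its ligand fell. Plxna1 was at 262 and 258 CPM against 227 and 214 CPM, a small fall (-0.24 ± 0.049, adjusted p = 0.000166) that was lost with scaling by library size alone (-0.07, adjusted p = 0.239).

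Of the 16 Slit, Robo and netrin genes 11 rose and 3 fell at day 2. Ntn4 rose most, from 0.406 and 0.646 CPM to 15 and 16.8 CPM (4.91 ± 0.21, adjusted p = 2.34e-15). Dcc, the attractive netrin receptor, had 2 counts in the GFP libraries together and 70 in the Dlx2 libraries. The ratio of scaled counts was 22, with a counting interval (95%) of 5.86 to 185 that covers counting error only. Unc5c, a repulsive netrin receptor, was at 0.406 and 1.01 CPM against 5.21 and 6.3 CPM (3.01 ± 0.28, adjusted p = 2.71e-09).

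Robo4, the endothelial member of the Robo family, fell most among all members at day 2. Its GFP libraries were at 9.73 and 11.8 CPM and its Dlx2 libraries at 2.04 and 1.85 CPM (-2.46 ± 0.17, adjusted p = 2.11e-11). Robo3, which lies on the other strand of chromosome 9 with its 3′ end 553 bp from that of Robo4, rose from 1.18 and 1.29 CPM to 4.3 and 4.74 CPM (1.87 ± 0.23, adjusted p = 2.57e-07). The 8 endothelial markers in the table summed to 121 to 125 CPM with GFP and 31.2 to 31.9 CPM with Dlx2. Most of this was Pecam1, which pluripotent cells also express. Cdh5 was at 1.01 and 2.22 CPM with GFP against 0.249 and 0.0867 CPM with Dlx2. Erg went the other way, at 0.243 and 0.928 CPM against 1.83 and 2.23 CPM, and Tie1 overlapped between the groups. The part of these endothelial markers in the day-2 fall of Robo4 was not tested. Slit2, a secreted Robo ligand, went from 9.41 and 8.07 CPM to 5.44 and 5 CPM (-0.74 ± 0.15, adjusted p = 0.000141), against the rise of Slit1 (1.58 ± 0.23, adjusted p = 2.49e-06) and Slit3 (1.92 ± 0.13, adjusted p = 1.03e-11). Ntn1 differed by -0.24 ± 0.083 (adjusted p = 0.0147), and this call did not hold in 6 alternatives, among them scaling by library size alone (-0.07, adjusted p = 0.505).

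**Figure D3:**
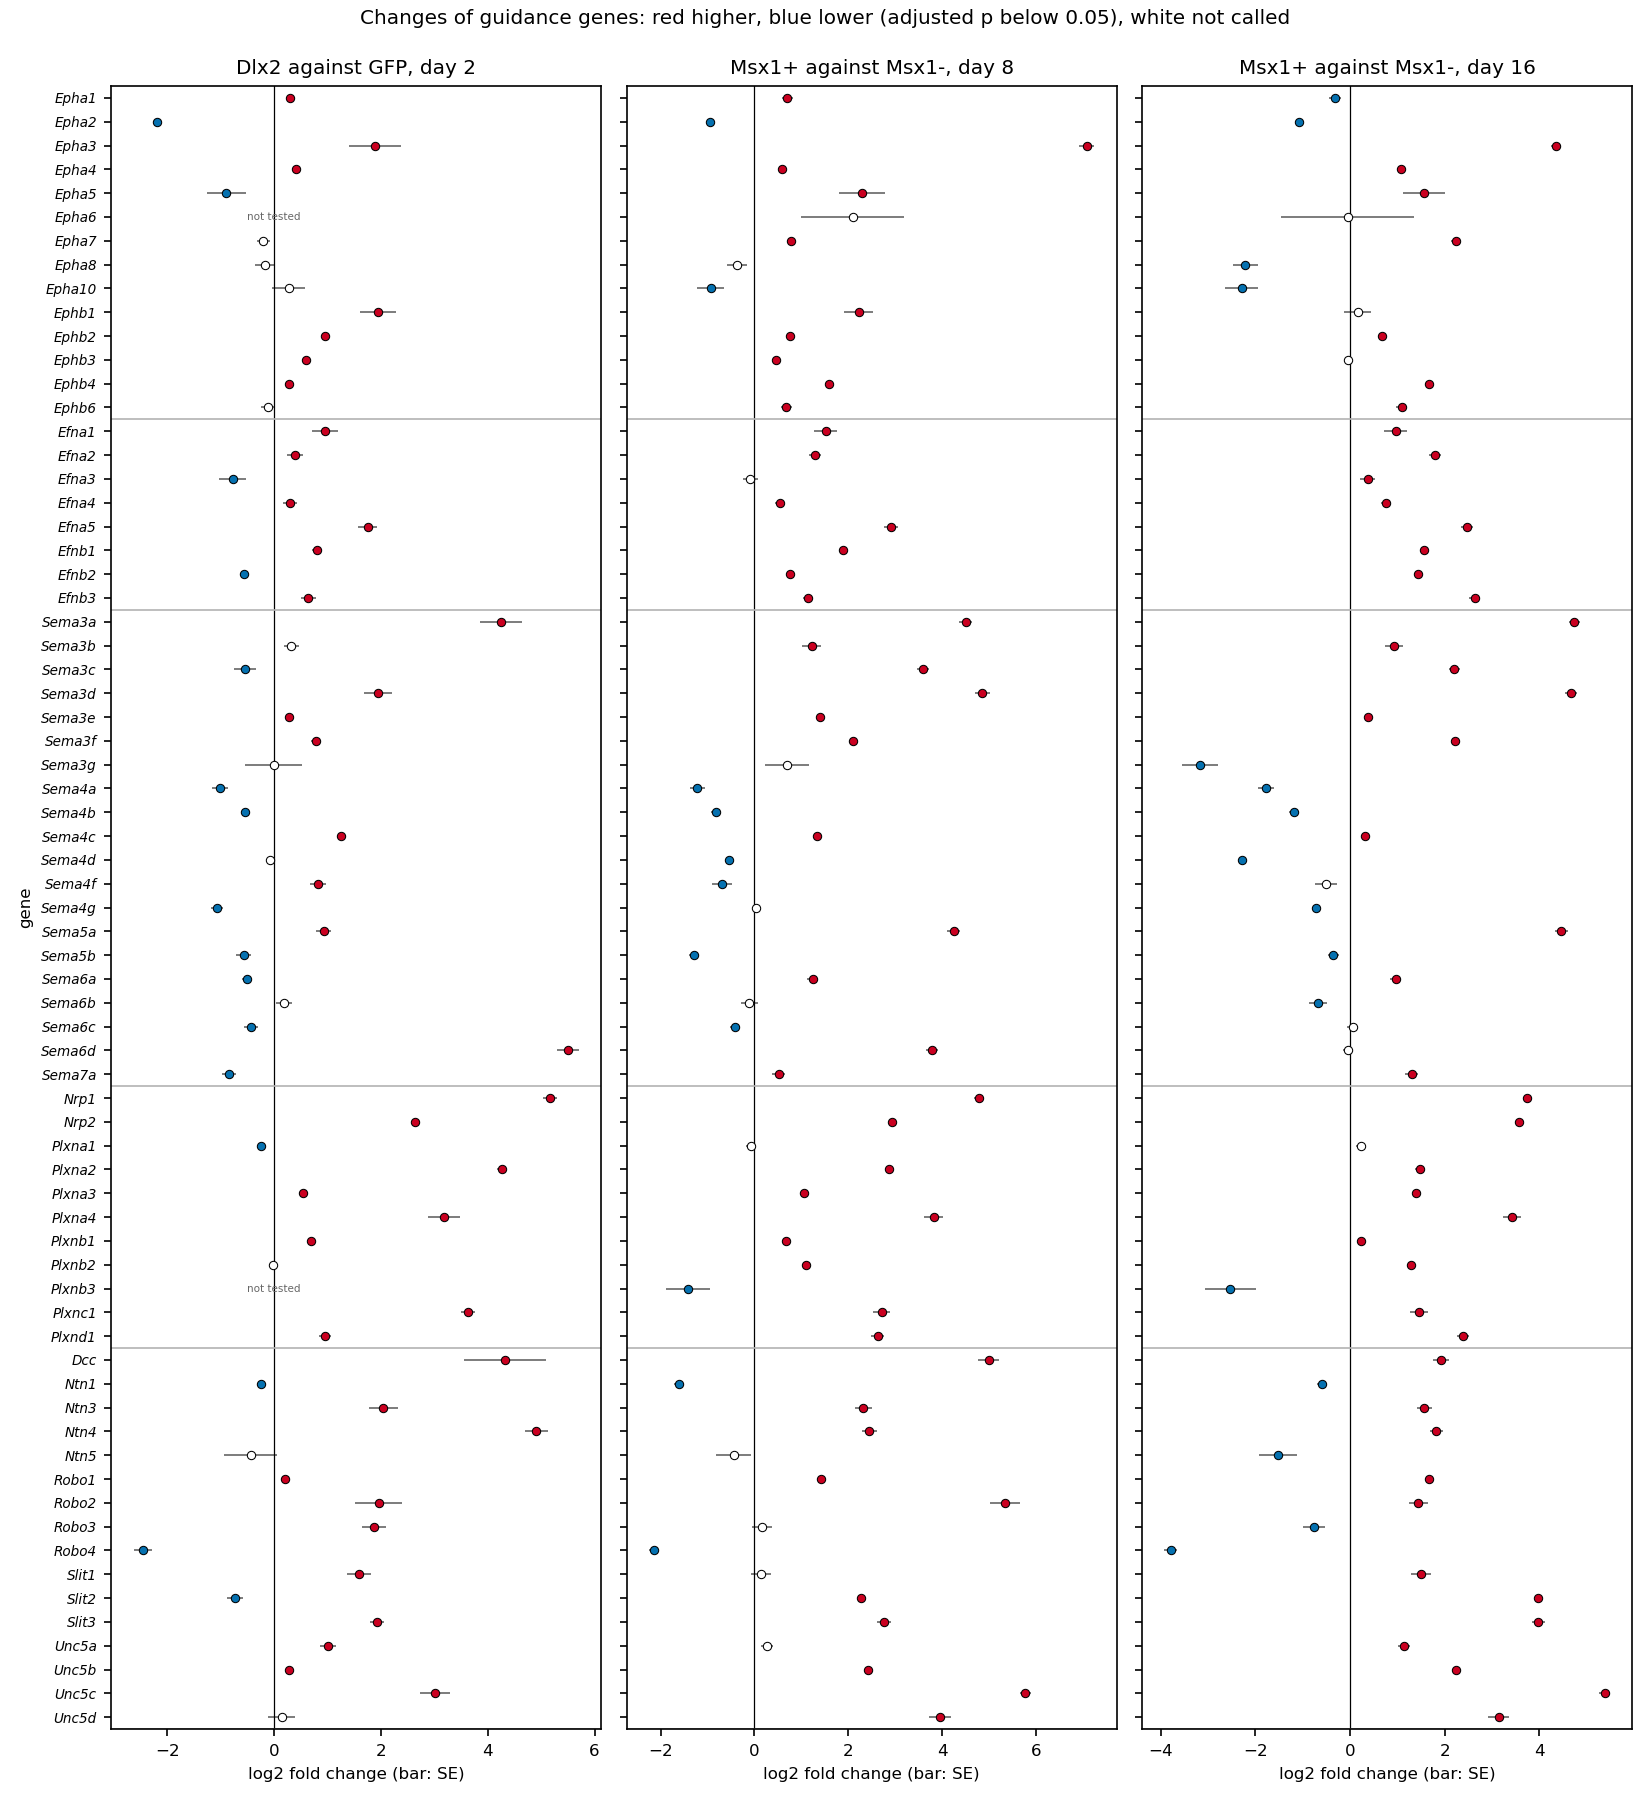
Points give the log2 fold change of each guidance gene (rows, grouped by class) in the 3 main comparisons, with its SE as a bar; red marks higher and blue lower at an adjusted p below 0.05, white neither. Red points outnumber blue ones in each panel, 40 to 16 at day 2, 47 to 11 at day 8 and 46 to 16 at day 16.

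At day 8 the comparison of Msx1-positive with Msx1-negative cells asks what sets the reporter-positive population apart. All 69 members were tested, and the Msx1-positive fraction had 47 members higher and 11 lower (edgeR, adjusted p below 0.05). The background over 22294 genes was 30.4% higher and 24.3% lower (54.7% in either direction). The median log2 change was 1.22 over members and 0.06 over all genes. Among the classes 7 of 8 ephrins, 10 of 14 Eph receptors, 9 of 11 plexins and neuropilins, 11 of 20 semaphorins and 10 of 16 Slit, Robo and netrin genes rose.

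The ephrins rose together at day 8, with Efna3 as the 1 that did not pass the test (-0.10 ± 0.16, adjusted p = 0.649). Efna5 was at 2.98 and 3.64 CPM in Msx1-negative and 22.7 and 26.8 CPM in Msx1-positive cells (2.91 ± 0.15, adjusted p = 1.93e-09). Efnb1 was at 14.2 and 13.7 CPM against 48.1 and 55.3 CPM (1.89 ± 0.086, adjusted p = 1.21e-10). For both genes all Msx1-positive libraries stood above all Msx1-negative ones. Efna1 rose by 1.52 ± 0.24 (adjusted p = 8.53e-05).

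Epha3 made the largest change of any member at any comparison of sorted fractions. It was at 0.162 and 0.148 CPM in Msx1-negative and 20.5 and 22.2 CPM in Msx1-positive cells of day 8 (7.08 ± 0.16, adjusted p = 9.96e-14). All 5 EphB receptors rose, from 0.47 ± 0.077 for Ephb3 (adjusted p = 9.97e-05) to 2.23 ± 0.31 for Ephb1 (adjusted p = 1.94e-05). Epha5 stayed low in both fractions, at 0.34 and 0.0924 CPM against 1.33 and 0.863 CPM (2.29 ± 0.49, adjusted p = 0.000973), and its change was 3.49 without Msx1-negative library 1. Epha2 fell from 414 and 413 CPM to 202 and 227 CPM (-0.95 ± 0.066, adjusted p = 1.34e-08). Epha10, a kinase-inactive family member, was at 2.25 and 2.05 CPM against 1.27 and 0.994 CPM, a call lost without Msx1-positive library 2 (-0.76, adjusted p = 0.119).

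The secreted Sema3 genes and the membrane-bound Sema4 genes went opposite ways at day 8. Of 7 Sema3 genes 6 rose and none fell, and of 6 Sema4 genes 1 rose and 4 fell. The levels of Sema3a were 1.43 and 1.63 CPM in Msx1-negative and 33.5 and 35.6 CPM in Msx1-positive cells (4.50 ± 0.14, adjusted p = 1.44e-12). Sema3d, which has a role in neural crest and vessels, was at 0.551 and 0.443 CPM against 14.9 and 14.1 CPM (4.85 ± 0.16, adjusted p = 2.74e-12). Sema5a, a transmembrane semaphorin with thrombospondin repeats, was at 8.02 and 7.32 CPM against 129 and 163 CPM (4.25 ± 0.14, adjusted p = 1.57e-09). Its relative Sema5b fell from 19.4 and 19.7 CPM to 7.3 and 8.61 CPM (-1.29 ± 0.11, adjusted p = 1.3e-07). Sema4a (-1.22 ± 0.16, adjusted p = 8.43e-06) and Sema4b (-0.82 ± 0.1, adjusted p = 1.13e-05) also fell.

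Of the 11 plexins and neuropilins 9 rose at day 8. Plxna1, the plexin of the highest level in Msx1-negative cells, was not called, at 291 and 280 CPM in Msx1-negative and 243 and 298 CPM in Msx1-positive cells (-0.08 ± 0.1, adjusted p = 0.546). Nrp1 was at 2.14 and 1.88 CPM in Msx1-negative and 52.2 and 59.1 CPM in Msx1-positive cells of day 8 (4.79 ± 0.11, adjusted p = 1.09e-13). Nrp2 was at 45.5 and 43.5 CPM against 324 and 361 CPM (2.94 ± 0.071, adjusted p = 1.45e-13). Plxna4, another plexin that pairs with neuropilins, was at 0.745 and 0.887 CPM against 9.32 and 13.6 CPM (3.82 ± 0.21, adjusted p = 1.54e-09). Msx1-positive libraries exceeded Msx1-negative libraries for all 3 genes. Plxnb3 was under 1 CPM in all 4 day-8 libraries, and its fall (-1.42 ± 0.47, adjusted p = 0.0198) was lost when Msx1-positive library 2 or either Msx1-negative library was left out.

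Netrin receptors showed some of the largest changes at day 8, while netrin-1 fell. Unc5c was at 2.41 and 1.81 CPM in Msx1-negative and 110 and 123 CPM in Msx1-positive cells (5.77 ± 0.12, adjusted p = 3.08e-14). Dcc was at 0.259 and 0.277 CPM against 8.58 and 8.57 CPM (4.99 ± 0.22, adjusted p = 1.06e-10). The more abundant Unc5b was at 66.3 and 66.4 CPM against 322 and 390 CPM (2.42 ± 0.089, adjusted p = 3.78e-11). Ntn1 was at 43.3 and 39.5 CPM against 12.3 and 14.7 CPM (-1.61 ± 0.11, adjusted p = 8.45e-09), so this ligand was higher in the fraction where Unc5c, Dcc and Unc5b were lower. The other ligands Ntn3 (2.32 ± 0.18, adjusted p = 5.75e-08) and Ntn4 (2.44 ± 0.16, adjusted p = 9.63e-09) rose. Ntn3 shares exon sequence with Tbc1d24 on the same strand in GENCODE vM21, so its value is uncertain.

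Slit ligands and Robo receptors were mixed at day 8. Slit2 rose from 13.8 and 14.3 CPM to 65.2 and 71.4 CPM (2.28 ± 0.069, adjusted p = 1.54e-12), and Slit3 rose by 2.76 ± 0.14 (adjusted p = 7.64e-09). Robo2, a main Slit receptor of neurons and kidney, was at 0.227 and 0.942 CPM in Msx1-negative and 22.4 and 23.2 CPM in Msx1-positive cells (5.33 ± 0.32, adjusted p = 3.52e-06). Robo4 fell from 30.8 and 32.5 CPM to 7.03 and 7.27 CPM (-2.15 ± 0.1, adjusted p = 2.71e-10). The 9 endothelial markers summed to 204 to 209 CPM in Msx1-negative and 85.4 to 86.7 CPM in Msx1-positive cells, and most of this was Pecam1, at 149 and 155 CPM against 54.5 and 55.8 CPM. Single markers went both ways, with Cdh5 at 20.8 and 18.8 CPM against 5.82 and 5.82 CPM but Kdr at 2.49 and 2.77 CPM against 8.7 and 8.71 CPM. Tie1 and Erg were, like Kdr, higher in the Msx1-positive libraries. The part of these markers in the fall of Robo4 was not tested.

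At day 16 the same comparison gave 46 members higher and 16 lower of 69 (edgeR, adjusted p below 0.05), against 31.1% higher and 31% lower (62.1% in either direction) of all 22294 genes tested. The median log2 change was 1.14 over members and -0.02 over all genes. All 8 ephrins rose, whereas the Eph receptors split into 7 higher and 4 lower of 14. Plexins and neuropilins rose in 9 of 11, semaphorins in 10 of 20 with 7 lower, and Slit, Robo and netrin genes in 12 of 16 with 4 lower.

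Ephrin levels in the Msx1-positive cells of day 16 were the highest of all groups of the later table. Efnb1 was at 46.3 and 50.9 CPM in Msx1-negative and 152 and 138 CPM in Msx1-positive cells (1.57 ± 0.08, adjusted p = 2.99e-10). Efnb3, a transmembrane ephrin, was at 6.17 and 5.85 CPM against 40.5 and 34 CPM (2.63 ± 0.11, adjusted p = 3.08e-11). Efna5 rose by 2.47 ± 0.13 (adjusted p = 2.28e-09) and Efna2 by 1.80 ± 0.13 (adjusted p = 1.01e-08). The rise of Efna3 (0.38 ± 0.16, adjusted p = 0.0496) was at the threshold and was lost in all but 2 of the alternatives.

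Among Eph receptors at day 16 the EphA genes divided into 4 higher and 4 lower of 9, and no EphB gene fell. Epha3 was at 2.4 and 2.16 CPM in Msx1-negative and 46.7 and 46.9 CPM in Msx1-positive cells (4.35 ± 0.11, adjusted p = 1.17e-13). Epha7 was at 11.5 and 11.8 CPM against 56.2 and 53.3 CPM (2.23 ± 0.097, adjusted p = 4.86e-11). Ephb4 was at 51.5 and 55.6 CPM against 172 and 167 CPM (1.66 ± 0.073, adjusted p = 5.56e-11), so both of these receptors were clearly separated between fractions. Of those that fell, Epha2 was the abundant one, at 274 and 289 CPM against 139 and 129 CPM (-1.08 ± 0.066, adjusted p = 2.33e-09). Epha8 (-2.21 ± 0.27, adjusted p = 4.05e-06) and Epha10 (-2.29 ± 0.35, adjusted p = 3.91e-05) were below 2 CPM in all day-16 libraries.

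Sema3 genes again rose, 6 of 7, and Sema4 genes fell, 4 of 6, at day 16. Sema3a was at 3.99 and 2.8 CPM in Msx1-negative and 91.1 and 90.6 CPM in Msx1-positive cells (4.74 ± 0.12, adjusted p = 1.79e-13). Sema3d (4.67 ± 0.12, adjusted p = 1.58e-13) and Sema5a (4.46 ± 0.14, adjusted p = 6.59e-10) also rose. Sema4d, the plexin-B1 ligand, was at 67.2 and 74.1 CPM against 15 and 14.1 CPM (-2.28 ± 0.074, adjusted p = 2.11e-12). Sema4a fell by 1.77 ± 0.17 on the log2 scale (adjusted p = 2.56e-07).

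Sema3g, a secreted semaphorin known from arterial endothelium, was the Sema3 gene that went the other way at day 16. Its levels were 6.62 and 7.77 CPM in Msx1-negative cells of day 16 and 0.664 and 0.935 CPM in Msx1-positive cells of that day (-3.17 ± 0.38, adjusted p = 6.06e-06). In the other 10 libraries it lay between 0.111 and 0.558 CPM. The 9 endothelial markers summed to 242 to 265 CPM in these Msx1-negative cells against 65.5 to 73.1 CPM in the Msx1-positive cells, most of it Pecam1 at 133 and 138 CPM against 10.1 and 9.2 CPM. Here too single markers went both ways. Cdh5, the vascular cadherin, was at 56.2 and 63.3 CPM against 10.3 and 10.6 CPM, whereas Kdr was at 3.76 and 5.18 CPM against 26.2 and 24.2 CPM, and Emcn and Erg were also higher in the Msx1-positive libraries. Markers of visceral endoderm were also highest in the same Msx1-negative libraries, at 128 and 129 CPM summed against 31 and 35.6 CPM. Most of the sum in the Msx1-negative libraries was Sox17, at 80.6 and 85.7 CPM against 8.7 and 10.4 CPM. Ttr differed little, at 12.4 and 10.6 CPM against 8.91 and 10.3 CPM. The part of the endothelial and visceral endoderm markers in the Sema3g level was not tested.

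Neuropilins and Slits reached their highest levels in the Msx1-positive cells of day 16. Nrp1 was at 12.3 and 13.3 CPM in Msx1-negative and 183 and 162 CPM in Msx1-positive cells (3.75 ± 0.091, adjusted p = 9.36e-14). Nrp2 was at 41 and 39.1 CPM against 493 and 455 CPM (3.56 ± 0.073, adjusted p = 1.83e-14). Plxna4 rose by 3.42 ± 0.19 (adjusted p = 7.94e-10), and Plxnb3, under 1 CPM throughout, fell by 2.53 ± 0.54 on the log2 scale (adjusted p = 0.00085).

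Slit2 was at 21 and 20.8 CPM in Msx1-negative and 344 and 317 CPM in Msx1-positive cells of day 16 (3.98 ± 0.071, adjusted p = 5.93e-15). Slit3 was at 7.47 and 9.53 CPM against 143 and 126 CPM (3.98 ± 0.14, adjusted p = 2.06e-10). Their receptor Robo1 was at 56.7 and 59.2 CPM against 194 and 173 CPM (1.66 ± 0.078, adjusted p = 1.17e-10). Ligand and receptor were thus both high in the Msx1-positive libraries. Unc5c, at 4.3 and 4.97 CPM against 201 and 185 CPM, had the largest change of all members at day 16 (5.38 ± 0.11, adjusted p = 1.42e-14).

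Robo4 had the largest fall of all members at day 16, from 15.8 and 14.5 CPM in Msx1-negative to 0.988 and 1.2 CPM in Msx1-positive cells (-3.79 ± 0.13, adjusted p = 3.93e-12). Its neighbour Robo3 was at 3.58 and 2.99 CPM against 1.57 and 2.32 CPM. The fall of Robo3 (-0.76 ± 0.23, adjusted p = 0.00975) became -0.50 (adjusted p = 0.11) without Msx1-positive library 1 and was also lost without Msx1-negative library 1. Ntn5, a netrin-like gene that stayed below 1.5 CPM in all libraries, fell by 1.52 ± 0.4 on the log2 scale (adjusted p = 0.00439), a call lost without Msx1-positive library 2 (adjusted p = 0.0532). Ntn1 fell by 0.60 ± 0.11 on the log2 scale (adjusted p = 0.000208), less than at day 8 (difference 1.02 ± 0.15, adjusted p = 0.000145).

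**Figure D4:**
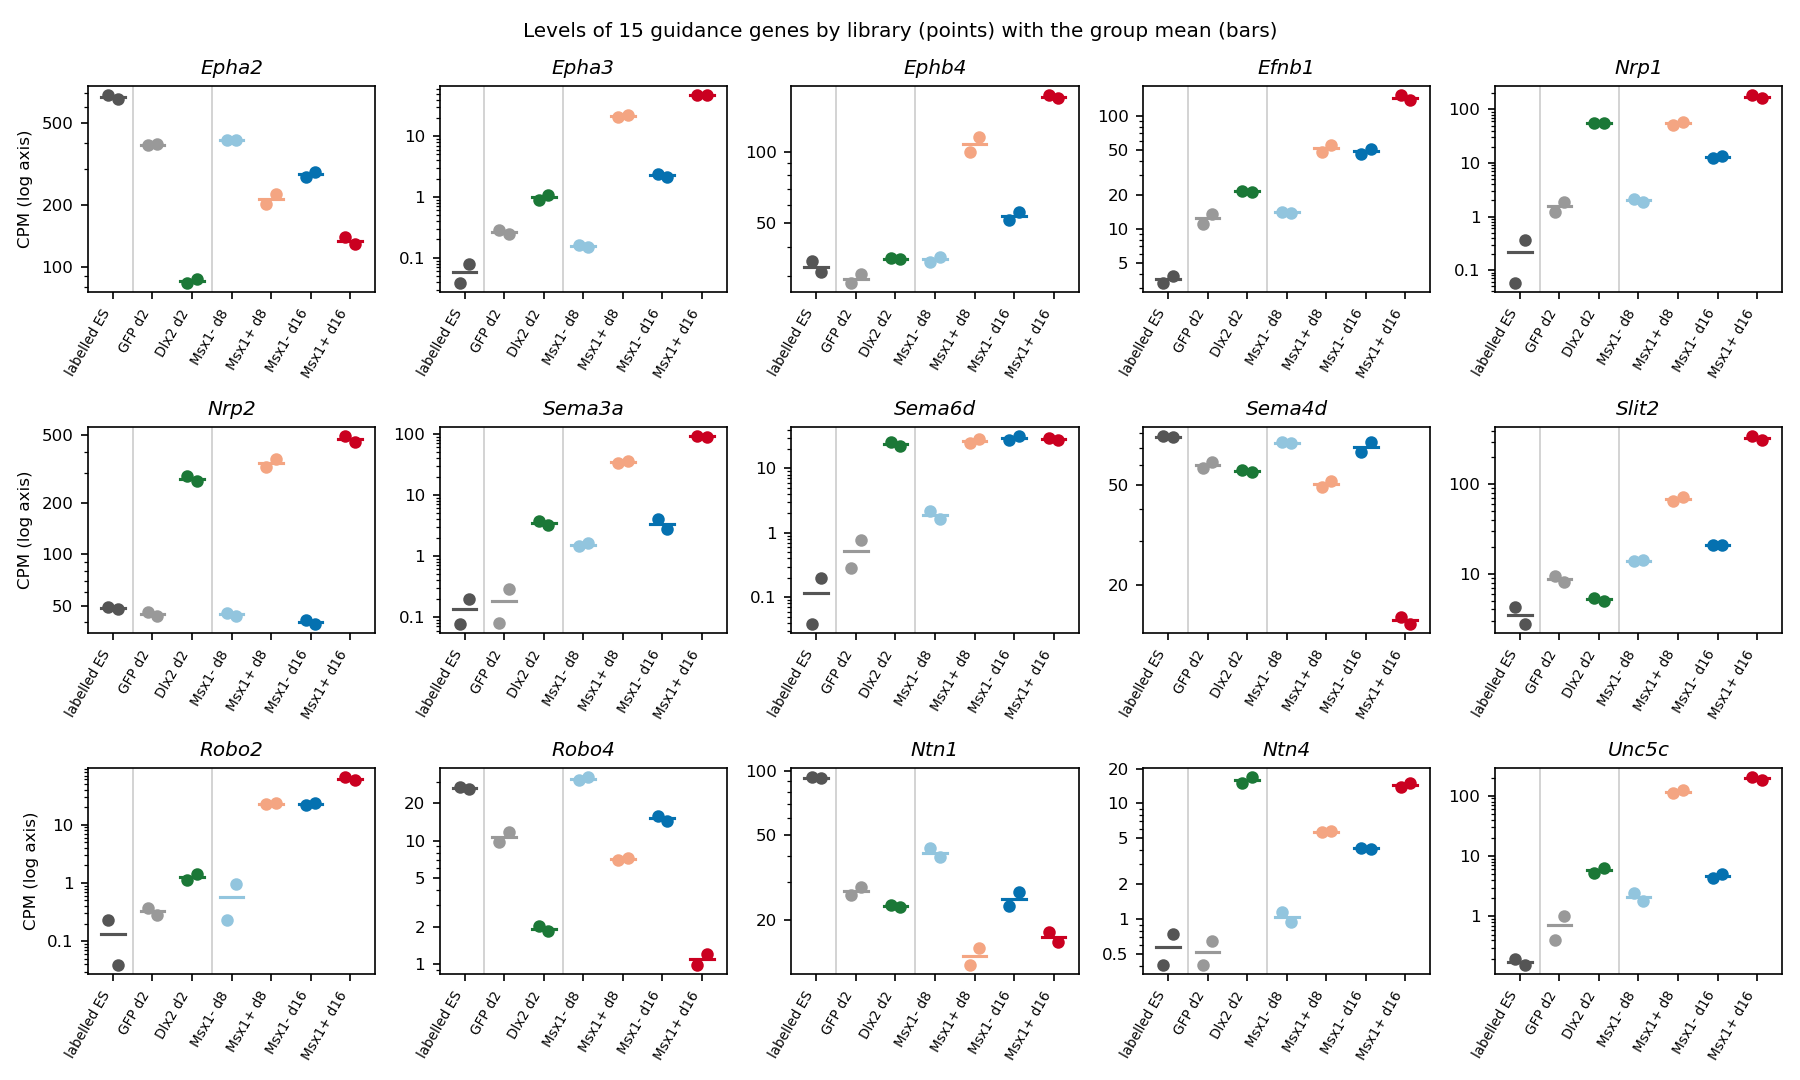
Points are the 2 libraries of each of the 7 groups and bars their mean, in CPM on a log axis with its own range for each of 15 guidance genes; grey lines separate the libraries labelled ES cells, the day-2 groups and the sorted cells. Nrp1, Nrp2 and Sema3a are higher with Dlx2 than with GFP and in Msx1-positive than in Msx1-negative cells, Epha2 and Robo4 are lower.

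Across the 3 comparisons, 32 of the 67 members tested in all of them (47.8%) were higher in each, against 16.5% of 18122 genes tested in all of them. Lower in each were 6 members (8.96%, against 15.7% of all genes): Epha2, Ntn1, Robo4, Sema4a, Sema4b and Sema5b. The day-8 and day-16 comparisons come from different libraries, but all sorted cells came from embryoid bodies with inducible Dlx2. Among the 32 were both neuropilins, 6 ephrins (Efna1, Efna2, Efna4, Efna5, Efnb1 and Efnb3), the plexins Plxna2, Plxna3, Plxna4, Plxnb1, Plxnc1 and Plxnd1, and the netrin receptors Dcc, Unc5b and Unc5c. The day-2 calls of Efna2 and Efna4 were lost in DESeq2, without Dlx2 library 2 and without 1 GFP library (library 1 for Efna2, library 2 for Efna4). The day-2 call of Robo1 was lost without Dlx2 library 1 or GFP library 1, and the day-16 call of Plxnb1 without library 1 of either fraction. Of the 6 lower in each, Sema5b lost its day-16 call without Msx1-positive library 2 or Msx1-negative library 1, and Ntn1 its day-2 call as given above. Called in all 3 with differing directions were 7 members (10.4%, against 8.01%): Efnb2, Epha1, Epha5, Sema3c, Sema6a, Sema7a and Slit2.

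Efnb2, Sema3c, Sema6a, Sema7a, Epha5 and Slit2 shared 1 order: lower with Dlx2 at day 2, and higher in Msx1-positive cells at both later days. For Epha5 the day-2 call was lost in 4 alternatives, and for Sema7a the day-8 call was lost without library 2 of either fraction. Sema3c, a secreted semaphorin of cardiac neural crest, stood at low levels at day 2. It was at 4.5 and 3.92 CPM with GFP and 3.35 and 2.37 CPM with Dlx2 (-0.54 ± 0.21, adjusted p = 0.0267, a call lost in DESeq2 and in 3 other alternatives). It was at 1.49 and 1.98 CPM against 20 and 21.6 CPM in the fractions of day 8 (3.59 ± 0.13, adjusted p = 1.4e-11). At day 16 it was at 14.3 and 17.2 CPM against 76.1 and 69.6 CPM (2.21 ± 0.11, adjusted p = 1.37e-10).

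The size of the difference between Msx1 fractions changed from day 8 to day 16 for many members. Tested as an interaction in the same edgeR fit, 15 members were higher and 23 lower at day 16 than at day 8 (adjusted p below 0.05), against 10.3% and 18.3% (28.6% in either direction) of all genes tested. With scaling by library size alone the split was 12 higher and 33 lower, and that scaling moved the median of all genes from -0.10 to -0.28. Its shift was also over 0.1 at day 2 (from 0.02 to 0.20) and at day 8 (from 0.06 to 0.22). The same held for Msx1-positive cells of day 16 against day 8 (from -0.034 to -0.15). Against the libraries labelled ES cells it held for Msx1-positive cells of day 8 (from 0.114 to 0.299) and Msx1-negative cells of day 16 (from 0.065 to 0.17). No called member changed direction under any scaling in the 3 main comparisons.

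Slit2 and Slit3 widened their difference between fractions, and so did Slit1, Efnb3 and Epha7. For Slit2 the log2 effect of sorting was 2.28 at day 8 and 3.98 at day 16 (difference 1.70 ± 0.095, adjusted p = 1.02e-08). Slit1 was at 2.54 and 3.55 CPM against 2.65 and 3.98 CPM at day 8, where the fractions overlapped, and at 3.57 and 3.39 CPM against 9.49 and 10.2 CPM at day 16 (difference 1.36 ± 0.29, adjusted p = 0.00285). The differences were 1.45 ± 0.13 for Epha7 (adjusted p = 1.62e-06) and 1.22 ± 0.19 for Slit3 (adjusted p = 0.00047). For Efnb3 the difference was 1.48 ± 0.15 (adjusted p = 3.93e-06).

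Robo2, Sema6d, Dcc and Epha3 narrowed theirs, and Msx1-negative cells held more of each at day 16 than at day 8. Robo2 was at 0.227 and 0.942 CPM in Msx1-negative cells of day 8 and at 21.7 and 23.9 CPM in those of day 16, the level of the Msx1-positive cells of day 8 (difference -3.90 ± 0.4, adjusted p = 0.000298). Sema6d was at 2.17 and 1.64 CPM against 24.7 and 28.1 CPM in the fractions of day 8 (3.78 ± 0.13, adjusted p = 8.33e-12). At day 16 it was at 27.1 and 31.4 CPM against 29.2 and 27.7 CPM, with overlapping fractions (-0.04 ± 0.11, adjusted p = 0.745; difference -3.82 ± 0.17, adjusted p = 1.23e-09). For Dcc the difference was -3.06 ± 0.29 (adjusted p = 2.11e-06) and for Epha3 -2.73 ± 0.24 (adjusted p = 1.13e-06). Sema3g, at the levels given above, had a difference of -3.86 ± 0.59 (adjusted p = 0.000237), but its fractions moved apart.

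Epha1 was the member called in opposite directions at the 2 days. It was at 11.2 and 8.59 CPM in Msx1-negative and 16.4 and 15.9 CPM in Msx1-positive cells of day 8 (0.70 ± 0.12, adjusted p = 0.000158), and at 12.8 and 12.9 CPM against 10.3 and 10.4 CPM at day 16 (-0.32 ± 0.12, adjusted p = 0.0322). The call at day 16 was lost when any 1 of the 4 day-16 libraries was left out, and Epha1 overlaps an exon of Zyx on the opposite strand.

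**Figure D5:**
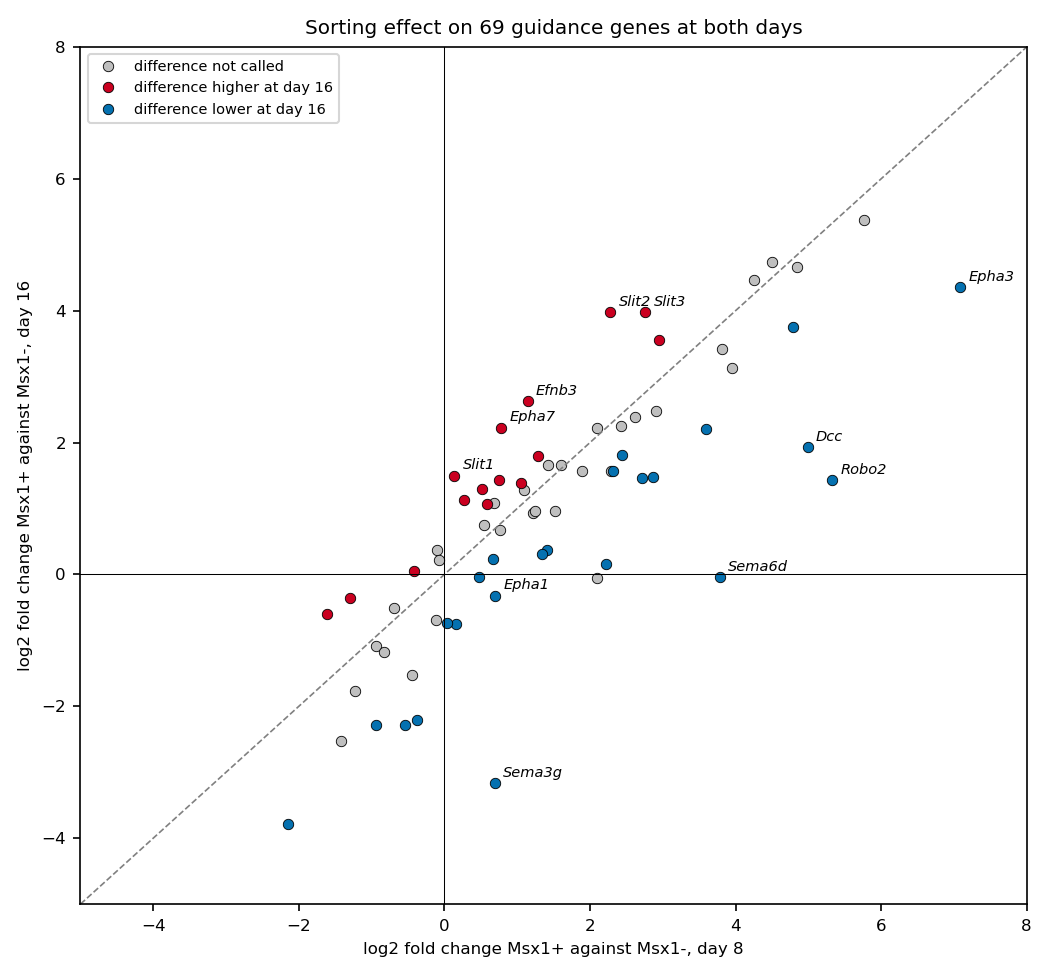
Each point is 1 of 69 guidance genes, with its log2 change between Msx1-positive and Msx1-negative cells at day 8 on the x axis and at day 16 on the y axis; red and blue mark a difference between days that was called higher or lower at day 16, and the dashed line marks equal changes. Slit2, Slit3, Efnb3, Epha7 and Slit1 lie above the line, and Robo2, Dcc, Sema6d, Epha3, Sema3g and Epha1 below it.

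From day 8 to day 16 members rose in both fractions more often than they fell. In Msx1-positive cells 38 rose and 17 fell of 69 (edgeR, adjusted p below 0.05), and 34 rose and 21 fell with scaling by library size alone. The shares of all genes tested were 21.1% and 24.8% (45.9% in either direction) with trimmed-mean scaling. Sema3d rose most (2.29 ± 0.1, adjusted p = 1.57e-10), then Slit2 (2.27 ± 0.065, adjusted p = 2.19e-12) and Sema3c (1.81 ± 0.1, adjusted p = 2.33e-09). Epha8 (-3.02 ± 0.26, adjusted p = 2.25e-07), Robo4 (-2.71 ± 0.13, adjusted p = 5.32e-10) and Epha10 (-2.19 ± 0.34, adjusted p = 9.59e-05) fell most.

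In Msx1-negative cells 35 members rose and 13 fell, against 19.7% and 17.8% (37.6% in either direction) of all genes tested. The largest rises were those of Robo2 (5.33 ± 0.32, adjusted p = 9.93e-06), Sema3g (4.40 ± 0.42, adjusted p = 2.52e-06) and Sema6d (3.93 ± 0.14, adjusted p = 2.46e-11). Epha8 (-1.18 ± 0.22, adjusted p = 0.000699), Robo4 (-1.06 ± 0.1, adjusted p = 1.27e-06) and Sema4f, a membrane semaphorin of neurons (-0.93 ± 0.22, adjusted p = 0.0037), fell most. The summed mesenchyme markers of these Msx1-negative libraries went from 55 and 56.8 CPM at day 8 to 429 and 462 CPM at day 16, and their part in these changes was not tested.

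Against the libraries labelled ES cells, which hold Dlx2 reads, members were higher more often than lower in each sorted population. The 4 comparisons share those 2 libraries, so their counts are not independent of each other. Msx1-positive cells of day 8 had 47 members higher and 13 lower (34.6% and 26.9% of all genes tested, 61.5% in either direction), and Msx1-negative cells of day 8 had 30 higher and 10 lower (19% and 14.5%, 33.6% in either direction). At day 16 Msx1-positive cells had 49 members higher and 15 lower (37.3% and 33.7%, 71% in either direction), and Msx1-negative cells had 42 higher and 13 lower (28.5% and 24.5%, 53% in either direction).

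Unc5c, Epha3 and Nrp1 were near 0 in the libraries labelled ES cells and had the largest rises in Msx1-positive cells. Unc5c was at 0.193 and 0.157 CPM in the libraries labelled ES cells, and its log2 change was 9.36 ± 0.16 at day 8 (adjusted p = 1.29e-17) and 10.09 ± 0.16 at day 16 (adjusted p = 1.13e-18). Nrp1, at 0.0578 and 0.372 CPM in the libraries labelled ES cells, was higher by 8.01 ± 0.24 at day 8 (adjusted p = 2.7e-11) and 9.64 ± 0.23 at day 16 (adjusted p = 1.66e-12). For Epha3 the changes were 8.47 ± 0.21 (adjusted p = 7.47e-16) and 9.60 ± 0.2 (adjusted p = 3.46e-17). Fitted changes against so few counts depend on the prior count of the fit.

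Netrin-1 was highest in the libraries labelled ES cells, at 93.4 and 92.3 CPM, and lower in all 4 sorted populations. Its log2 change was -2.78 ± 0.099 in Msx1-positive cells of day 8 (adjusted p = 1.04e-13) and -1.17 ± 0.094 in Msx1-negative cells of that day (adjusted p = 3.99e-08). Robo4 changed by -1.91 ± 0.1 in Msx1-positive cells of day 8 (adjusted p = 1.77e-11) and by -4.61 ± 0.13 in those of day 16 (adjusted p = 1.21e-15). Sema4a (-1.82 ± 0.15, adjusted p = 7.33e-09) completed the largest falls in Msx1-positive cells of day 8, and Epha8 (-4.43 ± 0.28, adjusted p = 1.19e-10) and Epha10 (-2.92 ± 0.35, adjusted p = 6.83e-07) those of day 16.

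In Msx1-negative cells Sema6d rose most against the libraries labelled ES cells, by 4.02 ± 0.35 at day 8 (adjusted p = 1.71e-07) and 7.95 ± 0.25 at day 16 (adjusted p = 1.5e-13). Unc5c (3.59 ± 0.27, adjusted p = 1.54e-08) and Sema3a (3.46 ± 0.33, adjusted p = 4.61e-07) followed at day 8, and Robo2 (7.37 ± 0.48, adjusted p = 6.45e-06) and Nrp1 (5.89 ± 0.27, adjusted p = 3.43e-09) at day 16. Sema7a changed by -1.48 ± 0.14 at day 8 (adjusted p = 1.94e-07) and by -1.37 ± 0.13 at day 16 (adjusted p = 1.47e-07). Epha8 changed by -1.05 ± 0.22 at day 8 (adjusted p = 0.0013), which became -0.69 without library 1 labelled ES cells (adjusted p = 0.0489), and by -2.22 ± 0.23 at day 16 (adjusted p = 3.44e-07).

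Other ligands and co-receptors of the same systems rose along with the members. Of this list 15 rose and 3 fell of 19 tested at day 2, 20 rose and none fell of 21 at day 8, and 14 rose and 2 fell of 21 at day 16, with medians of 0.92, 1.30 and 1.10. Over all genes tested 34.1%, 30.4% and 31.1% were higher and 33%, 24.3% and 31% lower in these comparisons. Ntng1, a netrin-G that acts on the cell surface, had no count in the GFP libraries and 193 counts in the Dlx2 libraries, at least 40.4-fold higher when 3 counts for the GFP group are taken as the floor. Flrt2, a ligand of Unc5 receptors, rose by 3.29 ± 0.16 at day 2 (adjusted p = 3.84e-14), 4.16 ± 0.11 at day 8 (adjusted p = 3.35e-13) and 3.08 ± 0.092 at day 16 (adjusted p = 8.2e-13). Kdr, a vascular growth factor receptor that works with neuropilins, fell at day 2 (-3.88 ± 0.15, adjusted p = 5.13e-16) and rose at day 8 (1.73 ± 0.15, adjusted p = 1.62e-07) and day 16 (2.49 ± 0.14, adjusted p = 1.15e-09).

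Signal mediators inside the cell had smaller medians than the ligand and co-receptor list. Among semaphorin effectors 11, 12 and 13 of 19 rose and 4, 2 and 2 fell at days 2, 8 and 16, with medians of 0.49, 0.67 and 0.77, beside the shares of all genes just given. Dpysl3, a collapsin response mediator, was at 42.6 and 39.4 CPM with GFP and 322 and 311 CPM with Dlx2 (2.95 ± 0.056, adjusted p = 1.91e-21), and at day 16 at 59 and 57 CPM against 747 and 724 CPM in the fractions (3.66 ± 0.062, adjusted p = 4.81e-15). Its relative Crmp1 fell at day 2 (-1.41 ± 0.082, adjusted p = 7.83e-13). Eph signal adaptors rose in 11, 11 and 10 of 17 and fell in 3, 2 and 3, with Chn2, a chimaerin that relays EphA signals to Rac, at the head of the list at day 2 (3.53 ± 0.11, adjusted p = 1.21e-17).

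Robo and Dcc effectors had 9 higher and 7 lower of 20 at day 2, 9 and 3 at day 8, and 12 and 3 at day 16, with medians of 0.11, 0.13 and 0.32. At day 2 this was 45% higher and 35% lower, near the 34.1% and 33% of all genes. Srgap1, a GTPase-activating protein bound by Robo1, rose at day 2 (1.70 ± 0.094, adjusted p = 3.29e-13), and the exchange factor Trio, which acts downstream of Dcc, rose at day 2 (1.12 ± 0.055, adjusted p = 3.8e-14) and day 8 (1.60 ± 0.096, adjusted p = 1.56e-08). Pak1, a kinase that binds Rac and Cdc42, fell in all 3 comparisons, with log2 changes of -1.10, -0.61 and -0.41 (adjusted p = 2.2e-13, 2.86e-06 and 0.000169).

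Ligands and the receptors they are known to bind could be set side by side by their levels per kilobase. In the Msx1-positive cells of day 16 the secreted ligand Sema3f and its receptor Nrp2 were both at their highest group mean of the later table, and so were Sema3a and Nrp1, Slit2, Slit3 and Robo1, and Efnb2 and Ephb4. That group held the highest mean of 38 of 69 members, so a shared peak there does not set these pairs apart. Not every ligand followed its receptors. Netrin-1 was at its highest mean in the libraries labelled ES cells, where Unc5b, Unc5c and Dcc were at their lowest, and Sema4d was at its highest there, where Plxnb1 was at its lowest. Several members lie close together in the genome, namely Efna1, Efna3 and Efna4 within a stretch of chromosome 3, Ephb2 and Epha8 93.4 kb apart on chromosome 4, and Sema3b and Sema3f 72.3 kb apart on chromosome 9. Ephb2 and Epha8 moved apart at day 16, with Ephb2 higher (0.68 ± 0.088, adjusted p = 8.55e-06) and Epha8 lower in Msx1-positive cells. In 18 of 69 members an exon overlaps that of another annotated gene, and no strand-specific counting is stated in the labels, so values of such members, Ephb4, Nrp1, Unc5c and Sema4c among them, may hold reads of the other gene.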

How the data were processed

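The deposited values were raw counts per gene symbol in 2 tables, 1 for the 4 day-2 libraries and 1 for the 10 other libraries. Per the submitters' processing notes the build was GRCm38 and the tools included HISAT2 2.1.0, fastp 0.20.0 and DESeq2 1.18.1, with no roles stated, and the counting program is not given in the sources used here. Day-2 columns name the line only and were assigned to the doxycycline-treated groups of that line. Members and gene lists were chosen with earlier results of these data known.

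From the counts, edgeR 4.0.16 (R 4.3.3, limma 3.58.1) gave quasi-likelihood tests after filterByExpr and trimmed-mean scaling, fitted over all genes with Benjamini-Hochberg adjustment, with calls made at adjusted p values under 0.05. The fits held the 4 day-2 libraries (18650 genes), the 8 sorted libraries (22294 genes) and all 10 libraries of the later table (22504 genes). The method was also run on simulated data in which few genes changed, unlike these data, so that run lends no support to the calls given here. SE is the log2 change over the root of the F statistic. Levels per kilobase used the union exon length of GENCODE vM21, which matched all 69 members. With 2 libraries a group, an exact permutation test on 1 gene cannot go below p = 0.333, so no such test is given.

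Named in each class were up to 3 called members with the largest change in each direction in the 3 main comparisons, with others added for their role after their values were seen. Alternatives were DESeq2 1.42.0, relative-log-expression factors, library size only, no filter, at least 1 CPM in at least 4 libraries, a replicate block, the libraries labelled ES cells added to the fit, and each library left out in turn. Counting intervals and floors cover counting error only.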

Additional observations from a re-analysis of the deposited data

Results flagged for a closer look

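The effect of sorting by Msx1 differed between day 8 and day 16, by a test of the difference itself, for 38 of 69 members. Of all genes tested 28.6% were called for this difference (10.3% higher and 18.3% lower). The log2 effect was larger at day 16 by 1.7 for Slit2, 1.48 for Efnb3, 1.45 for Epha7, 1.36 for Slit1 and 1.22 for Slit3. It was lower by the largest amounts for Robo2 (-3.9), Sema3g (-3.86), Sema6d (-3.82), Dcc (-3.06) and Epha3 (-2.73). For Robo2, Sema6d, Dcc and Epha3 the fractions came closer. The effect for Sema3g was not called at day 8 and was -3.17 at day 16, so its fractions moved apart. Epha1 (-1.02) was called higher in Msx1-positive cells at day 8 and lower at day 16.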

How the results depend on the processing

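All 20 counts of members stayed within 1.5 times their value in all 298 alternatives run. Of 1694 alternatives to the log2 changes of named members, 1673 kept the direction and the call, 21 lost the call and 0 reversed. These 21 concerned Epha5, Ntn1, Efna3 and Plxna1 at day 2, Epha10 and Plxnb3 at day 8, and Ntn5 and Robo3 at day 16. Calls of other members given in the text were also lost in some alternatives, namely Efna2, Efna4, Epha1, Robo1 and Sema3c at day 2, Sema7a at day 8, and Efna3, Epha1, Plxnb1 and Sema5b at day 16. The cause was not tested. Without GFP library 2 the GFP group has 0 counts of Dcc, and Dlx2 is at least 7.31-fold higher against 3 counts for the group. With the replicate block the counts were 41 higher and 16 lower at day 2, 47 higher and 11 lower at day 8, 46 and 16 at day 16, and 14 and 21 for the difference between days. Same-numbered libraries showed little common deviation over all genes tested (correlations -0.047 to 0.117 over 10 pairs of groups, and 0.042 at day 2 with the numbers of the deposited columns). Such values cannot exclude a pairing, because counting noise in genes of low level can bring them near 0. The numbers are used here to name libraries only. Members below about 1 CPM, such as Plxnb3, rest on few counts.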
